A study of Mus musculus with 8 samples.

Results

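The genes that make and load MHC class I molecules were examined by ATAC-seq, an assay in which adapters are cut by a transposase into DNA that is open in the nucleus, in splenic cDC1 without OPA1 and in WT splenic cDC1. The set held 10 genes: the heavy chains H2-K1 and H2-D1, the light chain B2m, the peptide transporter subunits Tap1 and Tap2, the peptide editors Tapbp and Tapbpl, the immunoproteasome subunit Psmb8, the class I transactivator Nlrc5 and the peptide-trimming aminopeptidase Erap1. Every accessible region that overlapped the span of one of these genes or lay within 10 kb of it was taken, with regions shared by neighbouring genes counted once. This gave 44 of the 59906 regions in the deposited count table.

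Conventional type 1 dendritic cells (cDC1) were sorted from mouse spleen. The 8 libraries were 4 OPA1KO libraries, from CD11c-Cre; OPA1 flox mice, and 4 WT libraries. OPA1, a mitochondrial dynamin-like GTPase, fuses inner membranes and keeps cristae in shape. The CD11c promoter drives the recombinase in dendritic cells generally and in some macrophages, so its action is not limited to cDC1. Whether the WT mice carried the Cre or the floxed allele, the strain, age and sex of the animals, and whether each library came from its own animal are not given in the labels. The p-values therefore cover only the spread from library to library, part of which may be technical.

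MHC class I molecules carry peptides made inside the cell to its surface for CD8 T cells. The proteasome cuts proteins, the TAP transporter moves the peptides into the endoplasmic reticulum, aminopeptidases trim them, and tapasin holds an empty heavy chain with B2m near TAP until a peptide fits. cDC1 are the dendritic cells best known for cross-presentation, in which peptides of engulfed material enter the same route, and NLRC5, interferon-induced factors and NF-kappaB act on the promoters of these genes.

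The total counts per library were between 4660826 and 7590578, and levels are given as CPM, a library's count in a region scaled to a common total, after TMM scaling, which corrects for differences in composition between libraries. The 44 regions held between 4 and 1185 counts in a library, with a median of 72. The one region at an end of the Opa1 gene (chr16:29579132-29579622), which need not overlap the floxed segment and so does not check the deletion, had 34.6, 41.4, 38.0 and 43.0 CPM in OPA1KO libraries, against 47.0, 40.7, 42.9 and 37.9 CPM in WT libraries. Of the 8 marker genes of cDC1 searched, 7 had regions at an end, and their summed level was 239 to 253 CPM in OPA1KO libraries, against 245 to 274 CPM in WT libraries. The single T cell marker with a region, of 5, was at 1.81 to 4.35 CPM in OPA1KO libraries, against 3.17 to 5.33 CPM in WT libraries. The 6 of 8 monocyte and macrophage markers with a region summed to 33.3 to 38.7 CPM in OPA1KO libraries, against 41.5 to 54.5 CPM in WT libraries. That marker sum did not overlap between the groups, and its part in the values below was not tested. The cDC2 markers, 4 of 5 with a region, summed to 69.3 to 77.3 CPM in OPA1KO libraries, against 76.3 to 92.6 CPM in WT libraries, ranges that barely overlapped, and their part was not tested either. Sums overlapped more widely for B cell markers (3 of 5), at 36.6 to 45.5 CPM in OPA1KO libraries and 39.1 to 49.6 CPM in WT libraries. Plasmacytoid markers (3 of 4) summed to 76.7 to 89.1 CPM in OPA1KO libraries and 82.1 to 87.5 CPM in WT libraries, and red cell markers (2 of 3) to 14.3 to 21.2 CPM in OPA1KO libraries and 12.2 to 19.2 CPM in WT libraries. In a bulk sample, a change in the cells present and a change in accessibility per cell cannot be told apart.

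Promoter sequences, from 250 bases before to 50 bases after the gene start, were matched in RefSeq for GRCm38.p6 for 7 of the 10 genes: H2-K1, H2-D1, B2m, Tap1, Tapbp, Psmb8 and Erap1. The 4 printed here are those whose full 300 bases lay inside the strongest region at an end of the gene, so that they show the DNA the counts below were collected over. They come from chr17:34000298-34000597 on the minus strand (H2-K1), chr17:35262844-35263143 on the plus strand (H2-D1), chr2:122147437-122147736 on the plus strand (B2m) and chr17:34187306-34187605 on the plus strand (Tap1). Each is written 5′ to 3′ along its gene, and capitals mark matches, on either strand, to the letter patterns named after the sequences.
H2-K1: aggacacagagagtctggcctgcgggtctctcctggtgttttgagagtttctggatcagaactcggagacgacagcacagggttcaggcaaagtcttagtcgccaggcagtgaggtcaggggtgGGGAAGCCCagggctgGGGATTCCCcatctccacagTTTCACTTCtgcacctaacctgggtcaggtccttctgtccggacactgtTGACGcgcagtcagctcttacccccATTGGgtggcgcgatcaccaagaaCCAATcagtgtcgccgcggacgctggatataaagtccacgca
H2-D1: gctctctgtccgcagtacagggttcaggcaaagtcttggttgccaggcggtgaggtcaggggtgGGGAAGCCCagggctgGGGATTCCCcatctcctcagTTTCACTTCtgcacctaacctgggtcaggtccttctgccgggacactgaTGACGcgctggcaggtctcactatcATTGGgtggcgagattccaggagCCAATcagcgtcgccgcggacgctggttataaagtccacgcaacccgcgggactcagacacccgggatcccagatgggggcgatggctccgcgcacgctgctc
B2m: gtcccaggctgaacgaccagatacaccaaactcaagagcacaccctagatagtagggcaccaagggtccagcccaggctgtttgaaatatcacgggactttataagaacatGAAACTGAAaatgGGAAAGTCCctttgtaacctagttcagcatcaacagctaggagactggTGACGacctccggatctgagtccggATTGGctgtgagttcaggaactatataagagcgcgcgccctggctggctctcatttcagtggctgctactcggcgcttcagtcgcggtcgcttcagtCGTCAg
Tap1: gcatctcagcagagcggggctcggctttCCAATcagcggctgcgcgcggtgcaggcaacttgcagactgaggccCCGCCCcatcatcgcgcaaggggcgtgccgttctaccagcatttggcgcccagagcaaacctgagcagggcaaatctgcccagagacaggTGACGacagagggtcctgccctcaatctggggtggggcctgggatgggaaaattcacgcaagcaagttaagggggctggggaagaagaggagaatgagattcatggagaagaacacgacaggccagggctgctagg

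The patterns searched on both strands were simple forms of the elements known from class I promoters. A match is a description of letters and not a binding site. The kappaB pattern GGNNTTNCC was found in H2-K1, H2-D1 and B2m, and in 15.9% of all 32544 promoters in the table. Each heavy chain held it as GGGATTCCC on the gene's strand, from base -110 in H2-K1 and -170 in H2-D1 relative to the gene start. Each also held it on the other strand, printed as GGGAAGCCC, from base -126 in H2-K1 and -186 in H2-D1. RefSeq lists a second H2-K1 start, from which the same H2-K1 matches begin at -124 and -140. The interferon-stimulated element was searched as GAAANNGAA, which matched B2m and Erap1 and 8.53% of all promoters. Its other end, GAANNGAAA, was searched after the first matches were seen and matched H2-K1 and H2-D1, where it reads TTTCACTTC, and 7.57% of all promoters. The 2 Erap1 matches to the first form overlap each other, and together span from 9 bases before to 5 bases after the gene start. No match to GGAANNGAA, the ETS-IRF composite of immune cells, was found in the 7 promoters, against 8.22% of all promoters.

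The cAMP-response type X2 element was searched as TGACG and occurred in H2-K1, H2-D1, B2m and Tap1 (20.9% of all promoters). The CCAAT pattern, whose inverted form ATTGG is the Y box of class I promoters, occurred in H2-K1, H2-D1, B2m, Tap1 and Tapbp (37.4% of all promoters). In H2-K1, H2-D1 and B2m the first letter of TGACG stood 25 bases before the first letter of ATTGG, with 20 letters between the patterns. That spacing was noticed after the matches were seen. It occurred in 31 of the 32544 promoters (0.0953%), belonging to 27 genes, which also included the class I gene H2-M3. Tap1 held TGACG but no ATTGG downstream of it, and its CCAAT match began at base -222 from the start. The GC box GGGCGG occurred in Tap1, Tapbp and Erap1 (35.9% of all promoters), and the Psmb8 promoter held none of the patterns.

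The H2-K1 and H2-D1 promoters were similar in sequence. Set against each other without gaps, with H2-D1 shifted by 60 bases, 176 of 240 bases were identical (73.3%). ATTGG and the CCAAT after it begin at bases -16 and 8 in H2-K1 and at -76 and -53 in H2-D1. Their spacing thus differs, the bases after it were compared out of register, and the share understates the likeness. Reads from such alike stretches can be split between the 2 genes or with other H2 genes by the authors' alignment. The counts at both heavy chains may therefore be less certain than those at the single-copy genes, which was not tested. The G and C content was 57.7% in H2-K1, 62.3% in H2-D1, 52.3% in B2m and 61.0% in Tap1, and the median of all promoters was 53%.

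**Figure D1:**
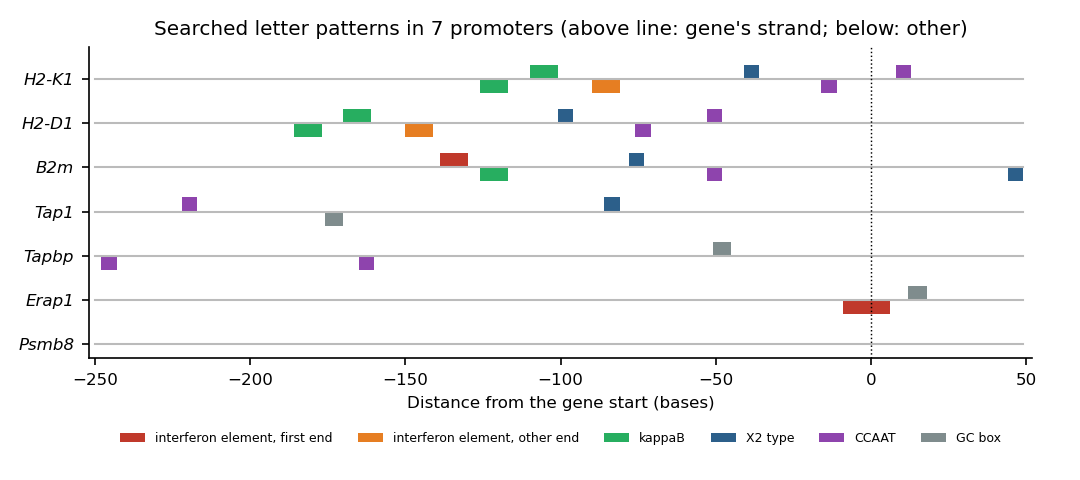
Matches to the searched patterns in the 7 promoters with a RefSeq entry, by distance in bases from the gene start (dotted line); blocks above a line are on the gene's strand and blocks below it on the other strand. In H2-K1, H2-D1 and B2m an X2-type block starts 25 bases before the start of the first CCAAT block after it, and Psmb8 has no block.

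The accessible regions in these gene windows included some of the strongest in the table, but the gene ends as a group were at the usual level for gene ends. The 15 regions at an end of a listed gene had a median of 21.3 CPM, against 23.8 CPM over the 13337 regions at an end of any protein-coding gene, and 44.2 CPM per kb, against 44.4 over those regions. All 44 regions had a median level of 10.8 CPM, against 6.76 CPM over all regions, and 34.3 CPM per kb of region, against 20.1 over all regions. By CPM, 32 of the 44 lay above the median of all regions and 9 in the top 10%. The 10 strongest regions held 68.1% of the summed level, and 3 of the 5 strongest lay only at ends of neighbouring genes (Vamp1, Daxx and Zbtb22). The 8 regions inside a listed gene had a median of 6.18 CPM. Of the 44 regions, 15 lay within 1 kb of an end of a listed gene, 7 lay only at an end of another gene, and 22 lay at no gene end. The gene table gives spans without exons or introns, so positions are described only relative to those spans. On chromosome 17 lay 6 of the genes and 23 of the regions.

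Accessibility at the gene ends was highest at the heavy chains. Each gene was represented by the end region with the highest mean CPM. Per kb of that region, averaged over all 8 libraries, the level was 227 CPM at H2-D1, 195 at H2-K1, 123 at Tapbp, 98.8 at B2m, 72.8 at Tap1, 49.4 at Tapbpl, 42.4 at Tap2, 39.0 at Nlrc5, 38.6 at Psmb8 and 33.8 at Erap1. The top and the bottom of this order differed by 6.72-fold. The library values of neighbours in the order did not overlap between H2-K1 and Tapbp, between B2m and Tap1, or between Tap1 and Tapbpl. The values of the other neighbours overlapped. Compared library by library, Tapbp was above B2m in 8, and H2-D1 above H2-K1 and Tapbpl above Tap2 in 7 each. Among the last 4, Tap2 was above Nlrc5 in 4 libraries, Nlrc5 above Psmb8 in 3 and Psmb8 above Erap1 in 6. These last 4 could not be ordered beyond their spread. The order was the same in OPA1KO libraries and in WT libraries except that Psmb8 and Nlrc5 changed places. The lower part of the order also depends on the region taken: the region over the Psmb8 start had 46.0 CPM per kb and the weaker Erap1 end region 34.3 CPM per kb.

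**Figure D2:**
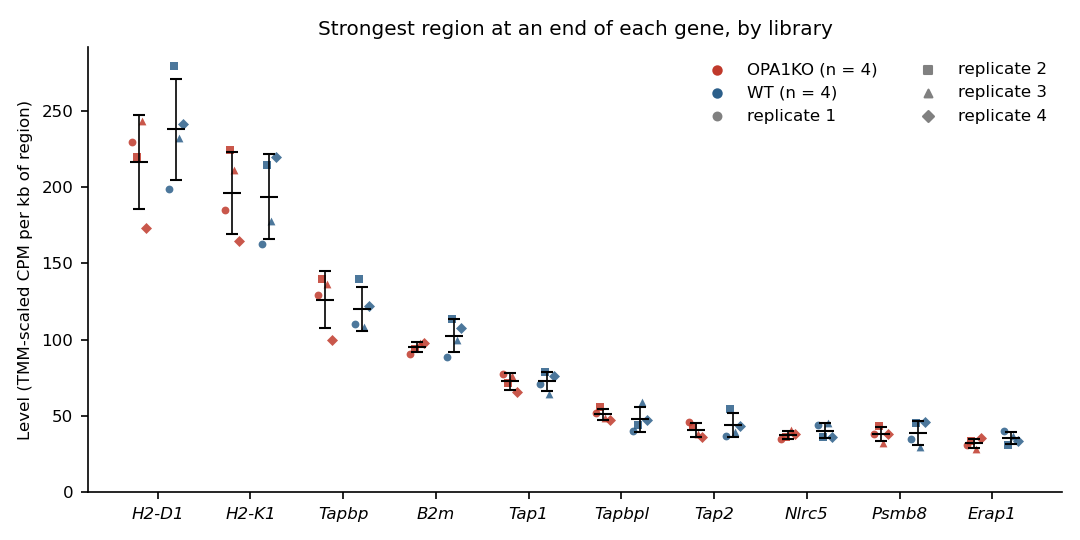
Level of the strongest region at an end of each gene in TMM-scaled CPM per kb of region, one point per library (shape gives the replicate number), with OPA1KO left of WT and bars for the mean and SD of 4. OPA1KO and WT points overlap at every gene, and the heavy chains H2-D1 and H2-K1 stand highest.

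Loss of OPA1 left no called difference at these genes. None of the 44 regions was called between OPA1KO and WT libraries at an adjusted p under 0.05 (edgeR quasi-likelihood test, Benjamini-Hochberg adjusted over 59247 regions), and the smallest adjusted p was 0.770. Over all tested regions 12 were called, or 0.0203%, of which 3 were higher (0.00506%) and 9 lower (0.0152%) in OPA1KO libraries. That total rests on single libraries: it was 68 without WT replicate 2, 22 without OPA1KO replicate 4, 8 without WT replicate 1, 4 without OPA1KO replicate 2, and 1 without OPA1KO replicate 1 or 3 or WT replicate 3 or 4. At an unadjusted p under 0.05 the edgeR test had 1 of the 44 regions, or 2.27%, against 6.38% of all tested regions. DESeq2 and limma-voom likewise called 0 of the 44. In none of the 44 were the OPA1KO and WT libraries fully apart, against 3.95% of all tested regions.

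The fitted log2 fold changes of OPA1KO over WT lay above 0 in 22 regions and below 0 in 22, with a median of 0.00, and ranged from -0.52 to 0.60. Over all tested regions the median was also 0.00, and 49.3% lay above 0. The median size of the change, without its sign, was 0.11 in the 44 regions, against 0.16 over all. The precision bounds what could have been missed: the 95% interval held 0 in 43 regions, stayed within 1.5-fold in either direction in 24, and within 2-fold in 40. Its median half-width was 0.22 on the log2 scale in the 14 regions at 20 CPM or more, against 0.48 in the 30 weaker ones. By position, 4 of the 15 regions at an end of a listed gene lay above 0 (median -0.10), 6 of the 8 inside a gene (median 0.24), and 12 of the 21 outside (median 0.02), with 0 called in each class. The split by position was not tested. The 8 inside regions were weak (median 6.18 CPM), with a median interval half-width of 0.52 on the log2 scale.

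**Figure D3:**
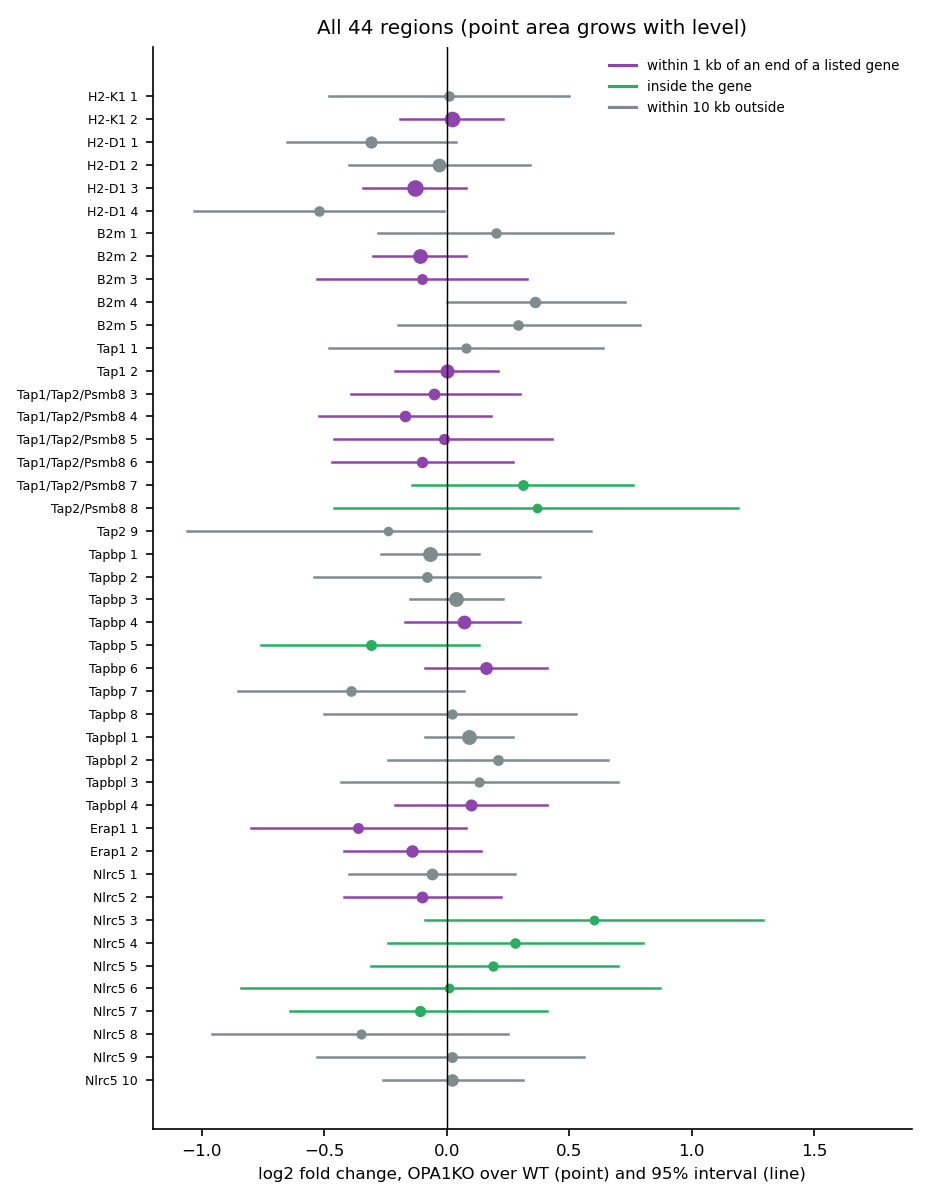
Log2 fold change of OPA1KO over WT (point, with area growing with level) and its 95% interval (line) for all 44 regions, grouped by gene and numbered along the chromosome, with colour for position. The line holds 0 in 43 of the 44, and the lines are shortest at strong regions at ends of listed or neighbouring genes.

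At each gene's strongest end region the log2 fold changes lay between -0.14 and 0.10, 7 below 0 and 3 above. Every one of these 10 intervals stayed within 1.5-fold, with outer bounds of 0.722-fold and 1.33-fold, and the adjusted p-values were 0.880 to 1 in the edgeR fit.

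The heavy chains bind the peptide and are what a CD8 T cell receptor sees. The H2-K1 end region (chr17:34000053-34000613) had 104, 126, 118 and 92.1 CPM in OPA1KO libraries, against 91.1, 120.1, 99.7 and 123 CPM in WT libraries. Each group held low and high libraries, and both covered about the same range. The log2 fold change was 0.02 ± 0.10 (SE; 95% interval -0.19 to 0.23). The H2-D1 end region (chr17:35262613-35263267), the strongest of the 44, had 150.3, 144, 159 and 113 CPM in OPA1KO libraries, against 130, 183, 152 and 158 CPM in WT libraries. OPA1KO replicate 4 was the lowest of the 8 libraries and WT replicate 2 the highest, with the other 6 interleaved. Its log2 fold change was -0.13 ± 0.10 (SE; interval -0.34 to 0.08; edgeR adjusted p = 0.880).

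H2-D1 was also flanked by the region with the smallest p of all 44. That region (chr17:35274773-35275095), between genes and 7276 bases beyond the span, had 4.70, 7.98, 5.90 and 4.76 CPM in OPA1KO libraries, against 5.78, 7.33, 9.71 and 10.8 CPM in WT libraries. WT replicates 3 and 4 were above every OPA1KO library, and WT replicates 1 and 2 were not. The log2 fold change was -0.52 ± 0.25 (SE; interval -1.03 to -0.01), with an unadjusted p of 0.0444 and an adjusted p of 0.770 in the edgeR fit. On the other side of the gene (chr17:35258228-35258502) the log2 fold change was -0.31 ± 0.17 (SE), and OPA1KO replicate 4 was lowest at 15.3 CPM. A stronger region between that one and the gene (chr17:35259090-35259438) was named after its values were seen. Its means were 50.35 ± 8.63 CPM in OPA1KO libraries and 51.3 ± 14.3 CPM in WT libraries (SD, n = 4 each). Its log2 fold change was -0.03 ± 0.17 (SE; interval -0.40 to 0.34). All 4 regions of H2-D1 had a fitted value below 0, and their sum averaged 218 ± 32.5 CPM in OPA1KO libraries and 241 ± 40.4 CPM in WT libraries (SD, n = 4 each), with overlapping groups.

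B2m encodes the light chain that every classical class I molecule needs. Its end region (chr2:122147382-122148179), which also lies within the span of Patl2, had 72.5, 74.7, 78.0 and 77.8 CPM in OPA1KO libraries, against 70.6, 90.6, 79.8 and 86.0 CPM in WT libraries. The OPA1KO libraries lay close together, inside the wider range of the WT libraries. The log2 fold change was -0.11 ± 0.09 (SE; interval -0.30 to 0.08). A second region (chr2:122155933-122156331), 2851 bases beyond the gene and inside the neighbouring gene Patl2, had 16.7, 16.5, 13.95 and 16.6 CPM in OPA1KO libraries, against 12.5, 12.2, 15.4 and 9.51 CPM in WT libraries. All 4 OPA1KO libraries were above the WT mean, but WT replicate 3 was above OPA1KO replicate 3. The log2 fold change was 0.36 ± 0.18 (SE; interval 0.00 to 0.73), with an unadjusted p of 0.0513 and an adjusted p of 0.785 in the edgeR fit. Summed over its 5 regions, B2m averaged 115 ± 1.74 CPM in OPA1KO libraries and 116 ± 9.34 CPM in WT libraries (SD, n = 4 each).

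Tap1, Psmb8 and Tap2 lie next to each other on chromosome 17, with 969 bases between Tap1 and Psmb8 and 3024 bases between Psmb8 and Tap2, and 5 regions lay within 10 kb of all 3. TAP1 and TAP2 form the transporter, and PSMB8 is a catalytic subunit that interferon exchanges into the proteasome. The region at the start of Tap1 (chr17:34187147-34187962) also covers the end of Psmb9, another immunoproteasome subunit that shares this stretch of promoter, and the counts cannot be divided between them. It had 63.4, 58.2, 62.4 and 53.3 CPM in OPA1KO libraries, against 58.0, 64.4, 52.8 and 62.1 CPM in WT libraries. The means were 59.3 ± 4.57 CPM in OPA1KO libraries and 59.3 ± 5.10 CPM in WT libraries (SD, n = 4 each), with a log2 fold change of 0.00 ± 0.10 (SE; interval -0.21 to 0.21). The 2 groups interleaved fully.

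The strongest region at an end of Psmb8 (chr17:34197407-34197872) lies in the gap between Tap1 and Psmb8. It had 17.8, 20.3, 15.03 and 17.7 CPM in OPA1KO libraries, against 16.1, 21.1, 13.9 and 21.5 CPM in WT libraries, with a log2 fold change of -0.05 ± 0.17 (SE). The region over the Psmb8 start itself (chr17:34198172-34198505), named after its values were seen, had means of 14.5 ± 2.32 CPM in OPA1KO libraries and 16.2 ± 1.64 CPM in WT libraries (SD, n = 4 each) and a log2 fold change of -0.17 ± 0.17 (SE). The Tap2 end region (chr17:34204329-34204653) had 14.95, 13.97, 12.3 and 11.8 CPM in OPA1KO libraries, against 12.0, 17.8, 12.9 and 14.2 CPM in WT libraries, with a log2 fold change of -0.10 ± 0.18 (SE). In all 3 regions the groups overlapped. A region inside Tap2 (chr17:34205913-34206213) had a log2 fold change of 0.31 ± 0.22 (SE; interval -0.14 to 0.76), from means of 9.52 ± 1.47 CPM in OPA1KO libraries and 7.74 ± 1.71 CPM in WT libraries (SD, n = 4 each).

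**Figure D4:**
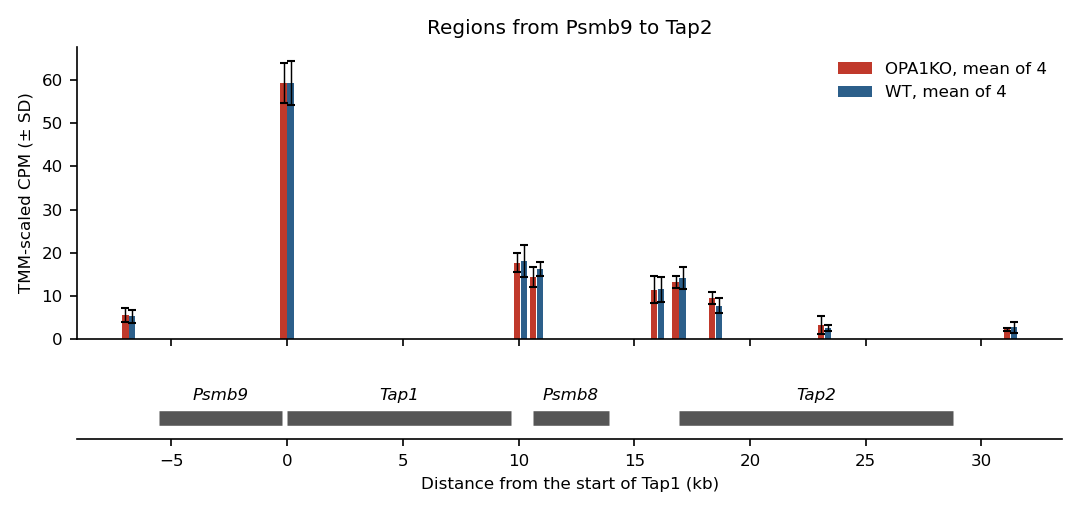
Mean level in TMM-scaled CPM (± SD, n = 4) of each region near Tap1, Psmb8 and Tap2, with OPA1KO left of WT, above the gene spans, by distance from the start of Tap1 in kb. The region between Psmb9 and Tap1, at 59.3 CPM in both groups, is higher than each region near Psmb8 and Tap2.

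Tapbp encodes tapasin, which bridges empty heavy chains to TAP, and Tapbpl encodes the related editor TAPBPR, which works apart from the TAP complex. The Tapbp end region (chr17:33919346-33919778), which is also at an end of Zbtb22, had 55.8, 60.4, 59.0 and 43.0 CPM in OPA1KO libraries, against 47.8, 60.5, 46.9 and 52.8 CPM in WT libraries. OPA1KO replicate 4 was the lowest of the 8, WT replicate 2 the highest, and the log2 fold change was 0.07 ± 0.11 (SE). The strongest Tapbp region (chr17:33909092-33909653) lay at an end of Daxx, near the edge of the 10 kb window, and had a log2 fold change of -0.07 ± 0.10 (SE). The other end of Tapbp, which it shares with Rgl2 (chr17:33929285-33930036), was at 0.16 ± 0.12 (SE). A region inside Tapbp (chr17:33920825-33921055) and a region inside Rgl2 (chr17:33930710-33930978) were at -0.31 ± 0.22 and -0.39 ± 0.23 (log2 fold change, SE). The 8 regions thus had values on both sides of 0, and their sum averaged 282 ± 23.5 CPM in OPA1KO libraries and 282 ± 25.6 CPM in WT libraries (SD, n = 4 each).

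The Tapbpl end region (chr6:125231576-125232007), also at an end of Cd27, had 22.5, 24.1, 21.1 and 20.4 CPM in OPA1KO libraries, against 17.4, 19.0, 25.6 and 20.5 CPM in WT libraries. The WT libraries covered a wider range on both sides, and the log2 fold change was 0.10 ± 0.15 (SE). The strongest region in its window (chr6:125215130-125215844) lay at an end of Vamp1, with means of 86.9 ± 7.10 CPM in OPA1KO libraries and 81.6 ± 4.80 CPM in WT libraries (SD, n = 4 each) and a log2 fold change of 0.09 ± 0.09 (SE). All 4 regions in the Tapbpl window had a fitted value above 0, by 0.09 to 0.21. The sums had a ratio of 1.07 of OPA1KO over WT, and the libraries of the groups overlapped.

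NLRC5 is the transactivator that raises transcription of class I genes together with the factors bound at the X and Y boxes. Its end region (chr8:94434064-94434531) had 16.4, 17.1, 19.1 and 17.7 CPM in OPA1KO libraries, against 20.7, 16.8, 21.1 and 16.9 CPM in WT libraries. WT replicates 1 and 3 were above all OPA1KO libraries, WT replicates 2 and 4 were within their range, and the log2 fold change was -0.10 ± 0.16 (SE). Nlrc5 has the longest span of the 10 genes, 92938 bases, and 5 of its 10 regions lay inside it away from the ends. One of these (chr8:94441714-94441984) had the largest log2 fold change of all 44, 0.60 ± 0.34 (SE; interval -0.09 to 1.29; edgeR adjusted p = 0.825), at a low level. It had 2.85, 3.27, 5.10 and 4.76 CPM in OPA1KO libraries, against 2.89, 3.59, 2.53 and 1.44 CPM in WT libraries. OPA1KO replicates 3 and 4 were above all WT libraries, and OPA1KO replicates 1 and 2 were within their range. The strongest region in the window (chr8:94532811-94533317) lay at an end of Cpne2, with a log2 fold change of 0.02 ± 0.14 (SE).

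Erap1 encodes the aminopeptidase that trims peptides in the endoplasmic reticulum to the length class I molecules hold. Its end region (chr13:74639678-74640491) had 25.1, 27.6, 23.4 and 28.7 CPM in OPA1KO libraries, against 32.6, 25.3, 30.0 and 27.3 CPM in WT libraries. All 4 OPA1KO libraries were below the WT mean, but OPA1KO replicates 2 and 4 were above WT replicates 2 and 4. The log2 fold change was -0.14 ± 0.14 (SE; interval -0.42 to 0.14). A weaker region upstream (chr13:74638943-74639223) was at -0.36 ± 0.22 (log2 fold change, SE). Their sum, the lowest of the 10 genes, averaged 34.6 ± 4.28 CPM in OPA1KO libraries and 39.6 ± 3.83 CPM in WT libraries (SD, n = 4 each), a ratio of 0.874.

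Summed over all 44 regions, the level was 1124, 1197, 1199 and 1025 CPM in OPA1KO libraries, against 1031, 1277, 1107 and 1208 CPM in WT libraries. OPA1KO replicate 4 and WT replicate 1 were the low libraries and WT replicate 2 the high one. Over each gene's strongest end region, 10 in all, OPA1KO replicate 4 was the lowest of its group in 6 and WT replicate 1 in 5. WT replicate 2 was the highest of its group in 5. The ratio of the group means of the sum, OPA1KO over WT, was 0.983. The ratios of the sums over each gene's window went from 0.874 at Erap1 to 1.07 at Tapbpl. Such window sums include regions shared between listed genes and regions at ends of neighbouring genes.

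Most of the class I regions lay within the spread of all regions of like level. All tested regions were divided into 20 bins by mean level, and 40 of the 44 lay inside the range from the 5th to the 95th percentile of their bin, which by construction holds 90% of regions. The 4 outside were the H2-D1 flanking regions at chr17:35258228-35258502 and chr17:35274773-35275095, below the band, and the B2m region in Patl2 and the Tapbpl region at Vamp1, above it. The H2-D1 flanking region nearest the gene (chr17:35259090-35259438) lay inside the band.

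**Figure D5:**
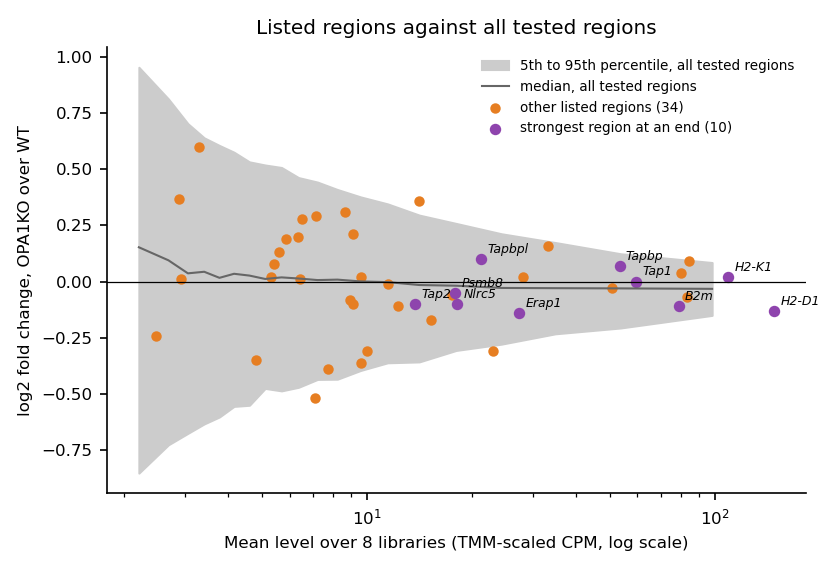
Log2 fold change of OPA1KO over WT against mean level over 8 libraries (TMM-scaled CPM, log scale) for the 44 regions, with each gene's strongest end region named. The grey band is the range from the 5th to the 95th percentile of all tested regions in 20 level bins, and the grey line is their median. Of the 44 points, 40 lie in the band, which narrows as the level grows.

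Regions at the ends of other genes of the pathway were not called either. Of 39 further genes for class I and related heavy chains, the proteasome, chaperones and trimming enzymes, transport into the endoplasmic reticulum and class I regulators, 32 had a region at an end, which made 31 regions beyond those already described. None of the 31 was called by the edgeR test, against 0.0203% of all tested regions, and 0 had an unadjusted p under 0.05, against 6.38%. The log2 fold changes ranged from -0.23 to 0.21 with a median of -0.01, 13 above 0 and 18 below. The smallest p-values below 0 belonged to H2-T23, which encodes the non-classical molecule Qa-1 (log2 fold change -0.23 ± 0.15, SE), and to Rfxap, a subunit of the X-box factor RFX (-0.13 ± 0.10, SE). Those above 0 belonged to Nfyb, a subunit of the factor that binds CCAAT (0.16 ± 0.09, SE), and to the class I gene H2-T24 (0.21 ± 0.15, SE). Their edgeR adjusted p-values were 0.821 to 0.875.

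Among the subgroups, the 6 proteasome and activator regions lay between -0.05 and 0.07, and the 7 of chaperones and trimming enzymes between -0.05 and 0.11 (log2 fold change). The 5 regions of related class I genes lay between -0.23 and 0.21, the 4 of transport and quality control between -0.18 and 0.11, and the 9 of regulators between -0.13 and 0.16. In 2 of the 31 regions, or 6.45%, the groups did not overlap, against 3.95% of all tested regions, and both were named after their values were seen. At Sec61b, a subunit of the translocon, the means were 56.2 ± 0.781 CPM in OPA1KO libraries and 52.2 ± 1.77 CPM in WT libraries (SD, n = 4 each). At Sec22b, a SNARE protein studied in cross-presentation, they were 22.2 ± 0.819 CPM in OPA1KO libraries and 25.1 ± 1.24 CPM in WT libraries (SD, n = 4 each). Neither was called.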

How the data were processed

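The deposited values are raw counts of ATAC-seq reads per region in 1 table over 8 libraries, with no normalization by the authors, per the file headers and the whole-number values. The submitters' processing notes name MACS2 2.1.0.20150603, bedtools, SAMtools, Picard 1.65 and cutadapt 1.9, and the builds mm10 and GRCm38. The roles and settings of these tools, any transposase offset applied to reads, the handling of reads with several alignments, and the rule that made the region set are not given in the sources used here. Whether starts count from 0 or 1 is not given either, so coordinates stand as deposited.

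Columns were assigned through the library names in the labels, and groups through the titles. Gene spans came from a RefSeq table on GRCm38.p6. Regions no more than 1 kb from an end of a span are called gene-end regions.

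Filtering with filterByExpr kept 59247 regions and dropped 659. Counts were scaled with TMM and fitted over all 8 libraries with edgeR 4.0.16 in R 4.3.3 (estimateDisp, robust glmQLFit, glmQLFTest, no covariates), with Benjamini-Hochberg adjustment over all tested regions and calls at 0.05. Standard errors and 95% intervals come from that fit. The procedure was tested on simulated data. Replicates differed beyond sampling noise, with a chi-square per degree of freedom of 2.16 to 4.76 in the 12 within-group pairs. None was thus a copy of another library of its group. Whether libraries came from separate animals cannot be told from this.

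The genes and lists were chosen with earlier results of these data known. The rule for naming took the strongest region at an end of each gene, the strongest other region in its window where that was at least as strong, the 5 regions in each direction with the smallest p, and 2 pathway genes in each direction. The other end of the interferon element, the spacing of the 2 patterns, and the region over the Psmb8 start were chosen after values or matches were seen. So was the H2-D1 flanking region at chr17:35259090-35259438. Alternatives were DESeq2 size factors or total counts as scaling, no filter or a CPM of at least 1 in 4 libraries, DESeq2 1.42.0, limma-voom (limma 3.58.1), the replicate number as a block, leaving out each library, and windows of 0 and 50 kb.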

Additional observations from a re-analysis of the deposited data

Results flagged for a closer look

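In 4 of the 78 groups of 4 libraries examined, 1 library stood apart from the other 3 by Dixon's criterion, which chance alone meets in about 1 group in 20. At the H2-D1 flanking region (chr17:35258228-35258502), OPA1KO replicate 4 was lowest at 15.3 CPM, against 21.95 to 23.1 CPM in the other OPA1KO libraries. At the B2m region inside Patl2 (chr2:122155933-122156331), OPA1KO replicate 3 was lowest at 13.95 CPM, against 16.5 to 16.7 CPM in the other OPA1KO libraries. Nlrc5's region at an end of Cpne2 (chr8:94532811-94533317) had WT replicate 2 highest at 31.4 CPM, against 26.5 to 27.2 CPM in the other WT libraries. Summed over the Tapbpl regions, OPA1KO replicate 1 was lowest at 112 CPM, against 128 to 129 CPM in the other OPA1KO libraries.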

How the results depend on the processing

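None of the 44 regions was called under any alternative run, and the median log2 fold change lay between -0.04 and 0.08. At an unadjusted p under 0.05 there were 5 of 44 without WT replicate 1 and 0 to 2 in the other fits. Over all tested regions there were 3910 of 59359 without WT replicate 1. The other fits had from 3033 of 59247 with the replicate block to 5084 of 59409 without WT replicate 2. Regions above 0 were 22 of 44, 10 of 20 that overlap a span, 57 of 107 within 50 kb, and 17 to 27 when 1 library was left out. The count called over all regions, 12, became 43 with DESeq2, 4 with limma-voom and 1 with the replicate block, and 1 to 68 when 1 library was left out. The cause was not tested. Total counts as scaling moved the share of all regions above 0 to 53.3%. Of the 28 regions named by the rule or lying over the Psmb8 start, 23 kept their sign in all 15 settings. The Tap1 start region stayed at 0.00 with DESeq2, DESeq2 size factors, limma-voom and the replicate block and was 0.02 with total counts. With 1 library left out, values went from -0.04 to 0.05 at Tap1, -0.05 to 0.09 at H2-K1, -0.05 to 0.13 at Nlrc5's region by Cpne2, -0.14 to 0.05 at chr17:34197407-34197872 and -0.17 to 0.03 at Tap2. Libraries with the same number did not deviate together (correlations -0.143 to -0.010, and 0 of 8 matched best with their own number), so the block result is only a check. Depth limits the 30 regions under 20 CPM, whose intervals had a median half-width of 0.48.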
